A study of Mus musculus with 9 samples.

Results

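The cells described here are CD8 single-positive (SP) thymocytes of adult female mice whose RNA is rich in genes of DNA replication and poor in genes of mitosis. They were chosen from the CD8 SP sort gate (CD4-CD8+ by flow cytometry) by a rule on measured RNA: a summed 5 or more UMIs (unique molecular identifiers, each 1 captured RNA molecule) of Mcm3, Mcm5, Mcm6, Ung, E2f1 and Hells, a summed count below 5 UMIs of Mki67, Top2a, Cdk1, Birc5, Ube2c and Ccnb2, and at least 1 UMI of Nkg7, a granule protein gene carried by CD8 lineage cells. The rule found 595 cells among 5889 I173A and WT cells of the CD8 SP gate, and among 16884 cells of 3 gates. They are called MCM-high cells below. Of them 239 carried the CD3ε I173A allele, a point mutation in the CD3ε chain of the T cell receptor (TCR) complex, and 356 were WT.

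Thymocytes of both genotypes were labelled with antibody hashtags before sorting (hashtag 6 for I173A, hashtag 4 for WT), sorted into CD4 SP, CD8 SP and CD4+CD8+ double-positive (DP) cells, and loaded as 3 mixed samples for 5′ single-cell RNA sequencing with paired TCR sequencing. I173A and WT cells of a gate therefore shared 1 library, and each genotype was 1 sample, because the labels name no mice. Differences between genotypes have no replicate check, no test was possible, and the 95% intervals given are exact intervals for counting error only. Levels are given as CPM, the summed UMIs of a gene over a class of cells per 1000000 UMIs of that class. The study's title calls I173A an allele that enhances TCR signalling.

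Cells prepare DNA replication in G1, when the origin recognition complex, CDC6 and CDT1 load the MCM helicase onto origins. E2F transcription factors, released from the retinoblastoma proteins by cyclin-dependent kinases, switch on the genes of this step together with those of the replication fork and of nucleotide supply. Replication-dependent histone RNA, ribonucleotide reductase subunit Rrm2 and cyclin A2 accumulate once DNA synthesis is under way, and the mitotic genes follow in G2. In the thymus, mature SP cells are known to divide in a late phase before they leave for the periphery.

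Promoters of some of these genes are shown first, because E2F sites are a known DNA element of genes of the replication programme. The rule chose the cells by genes of that programme, so other genes of it stand high partly through that choice. The sequences are the 250 bases before the gene start (RefSeq, GRCm38.p6), written 5′ to 3′ in the direction of transcription. Capitals mark the E2F words searched for, TTTCGCGC, TTTGGCGC, TTTCCCGC and TTTGCCGC, on either strand. The promoters are Mcm5 at chr8:75109259-75109508 (plus strand), Mcm6 at chr1:128359706-128359955 (minus), Dtl at chr1:191575545-191575794 (minus), Uhrf1 at chr17:56304063-56304312 (plus) and Chaf1a at chr17:56040166-56040415 (plus).
Mcm5: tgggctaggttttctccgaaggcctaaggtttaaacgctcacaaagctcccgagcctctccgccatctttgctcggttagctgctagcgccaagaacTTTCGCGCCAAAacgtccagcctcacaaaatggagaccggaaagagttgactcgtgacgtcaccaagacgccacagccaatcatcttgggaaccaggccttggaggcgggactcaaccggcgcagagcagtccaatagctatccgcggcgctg
Mcm6: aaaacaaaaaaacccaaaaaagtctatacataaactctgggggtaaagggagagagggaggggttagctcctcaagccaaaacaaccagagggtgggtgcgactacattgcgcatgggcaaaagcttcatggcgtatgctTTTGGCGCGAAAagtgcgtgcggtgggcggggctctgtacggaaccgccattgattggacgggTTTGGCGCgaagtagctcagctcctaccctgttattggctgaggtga
Dtl: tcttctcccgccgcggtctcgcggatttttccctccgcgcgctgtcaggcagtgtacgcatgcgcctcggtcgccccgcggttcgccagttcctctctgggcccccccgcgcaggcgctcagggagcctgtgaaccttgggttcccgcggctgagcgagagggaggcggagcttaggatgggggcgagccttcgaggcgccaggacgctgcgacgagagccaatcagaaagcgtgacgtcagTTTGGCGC
Uhrf1: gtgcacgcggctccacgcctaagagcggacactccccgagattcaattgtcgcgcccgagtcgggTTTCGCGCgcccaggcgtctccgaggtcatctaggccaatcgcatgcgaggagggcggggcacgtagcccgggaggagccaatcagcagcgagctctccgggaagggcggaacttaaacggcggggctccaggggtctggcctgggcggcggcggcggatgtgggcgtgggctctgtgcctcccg
Chaf1a: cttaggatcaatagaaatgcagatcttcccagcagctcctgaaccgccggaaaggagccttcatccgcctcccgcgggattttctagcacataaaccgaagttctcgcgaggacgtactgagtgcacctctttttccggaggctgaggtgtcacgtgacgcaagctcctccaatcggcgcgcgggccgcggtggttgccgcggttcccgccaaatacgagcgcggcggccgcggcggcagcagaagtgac
Mcm5 and Mcm6 belong to the rule, and Dtl, Uhrf1 and Chaf1a were among the 12 genes highest in MCM-high cells over noncycling cells. In Mcm5, 2 overlapping words start 153 and 149 bases before the gene start, and in Mcm6 3 words start 110, 106 and 47 bases before it, the first pair overlapping. Dtl has 1 word at 8 bases and Uhrf1 1 word at 185 bases. Chaf1a, among the highest of all genes over noncycling cells, has none of the 4 words in the window. Only exact matches to these 8-base words were searched for, so a window without one may still hold another form of E2F site. The 5 promoters were picked as examples: 3 of the 6 S phase rule genes hold an E2F word, as do 4 of the 9 available promoters of the 12 highest genes. An E2F word stood in 583 of 27025 mouse promoters (2.16%) and in 223 of 4820 promoters of genes measured in MCM-high cells (4.63%). It stood in 29 of the 206 available promoters (14.1%) of the genes that were 1.5-fold or more higher than in noncycling cells in both genotypes, rule genes left out. Of the 44 genes of the G2/M list, 36 had a promoter, and 2 of these held an E2F word, while 13 held the CHR element TTTGAA (36.1%, against 18.3% of all promoters). A match in the letters is a description and no evidence of binding. The shares among genes higher than in noncycling cells follow in part from the choice of cells, which leaving out the rule genes does not undo. Whether E2F drives these genes here was not tested.

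MCM-high cells were set beside noncycling and dividing cells of the same gate, all with at least 1 Nkg7 UMI. Noncycling cells had fewer than 5 UMIs of both gene sets (1915 I173A and 1712 WT cells), and dividing cells had 5 or more UMIs of the mitosis genes (180 I173A and 210 WT cells). Median depth was 8905 UMIs per I173A and 8231.5 per WT MCM-high cell, against 5088 and 5223 per noncycling cell and 12394.5 and 11990.5 per dividing cell. Because the rule is a UMI count, deeper cells pass it more readily. The rule genes summed to a median of 10 UMIs in I173A and 9 in WT MCM-high cells, against 1 in noncycling cells of either genotype. At the threshold itself, 32 I173A and 54 WT cells had exactly 5 UMIs of the S phase genes, and 68 I173A and 69 WT Nkg7-positive cells had 4 and stayed outside. On the mitosis side, 13 I173A and 12 WT cells with 4 UMIs were kept, and 8 and 9 cells that met the other conditions had 5 and were not. Without any Nkg7 UMI, 16 I173A and 23 WT cells met the other conditions.

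The label given to these cells, entering S phase, was checked against genes outside the rule. Licensing genes lay between noncycling and dividing cells. Summed over the licensing list, MCM-high cells had 1261 CPM (I173A) and 1346 CPM (WT), against 424 and 446 CPM in noncycling cells and 1931 and 1864 CPM in dividing cells. Mcm4, a helicase subunit, had 231 CPM in I173A and 255 CPM in WT MCM-high cells, against 56.6 and 61.9 CPM in noncycling cells and 263 and 217 CPM in dividing cells. Replication histones and cyclin A2 were close to their noncycling level instead. Summed over 36 replication histone genes, MCM-high cells had 399 CPM (I173A) and 480 CPM (WT), against 570 and 579 CPM in noncycling cells and 17174 and 14064 CPM in dividing cells. Of 15 histone genes measured against noncycling cells, 0 were 1.5-fold or more higher and 2 lower. Cyclin A2 (Ccna2), the S and G2 phase cyclin, had 1.81 and 2.57 CPM, against 1.56 and 1.64 CPM in noncycling cells and 288 and 299 CPM in dividing cells. The rule bears on this: it asks for high MCM genes, and it sends cells with 5 or more UMIs of the mitosis genes to the dividing class. The values are therefore a description of the cells it leaves, and the cells are named by the rule rather than by a cell cycle phase.

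**Figure D1:**
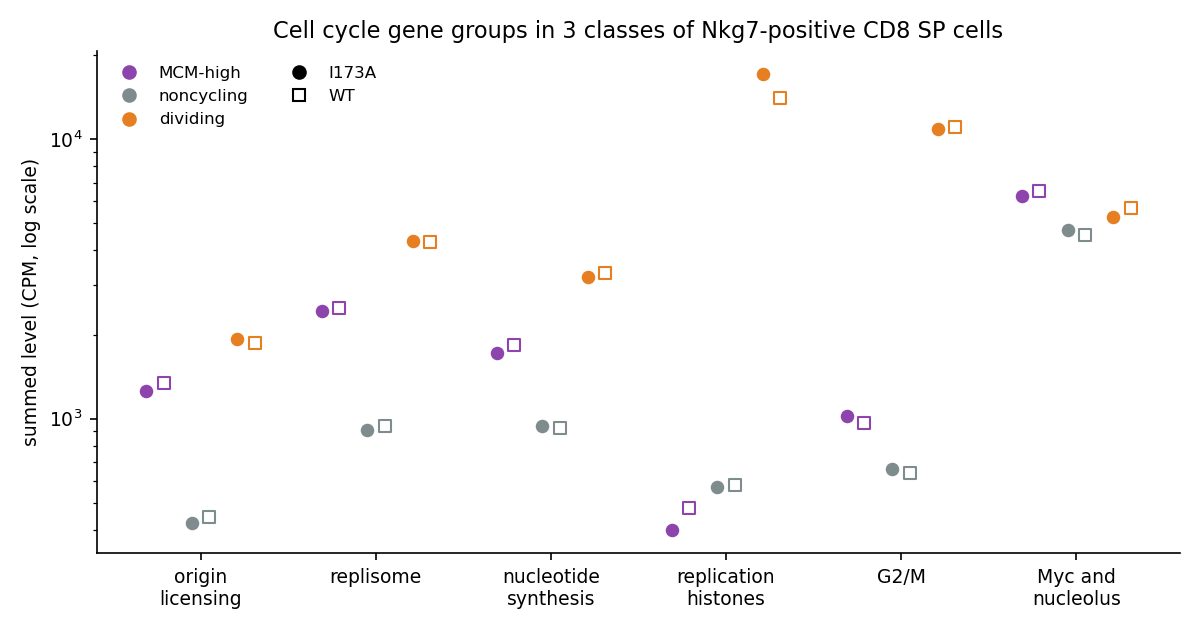
Summed level of 6 gene lists, in CPM on a log scale, in MCM-high, noncycling and dividing Nkg7-positive CD8 SP cells. Circles are I173A and squares WT, 1 sample each. Licensing and replisome genes of MCM-high cells lie nearer to dividing than to noncycling cells, and histones lie below noncycling cells.

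Per cell the histone counts of MCM-high cells overlapped those of noncycling cells and lay below most dividing cells. The median was 3 histone UMIs in I173A and in WT MCM-high cells, against 3 in noncycling cells of each genotype and 197 and 174 in dividing cells. The highest I173A MCM-high cell had 13 and the highest WT cell 57. The median of the licensing list ran the other way, with 10 UMIs per MCM-high cell in each genotype, 2 per noncycling cell, and 25 (I173A) and 23 (WT) per dividing cell.

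**Figure D2:**
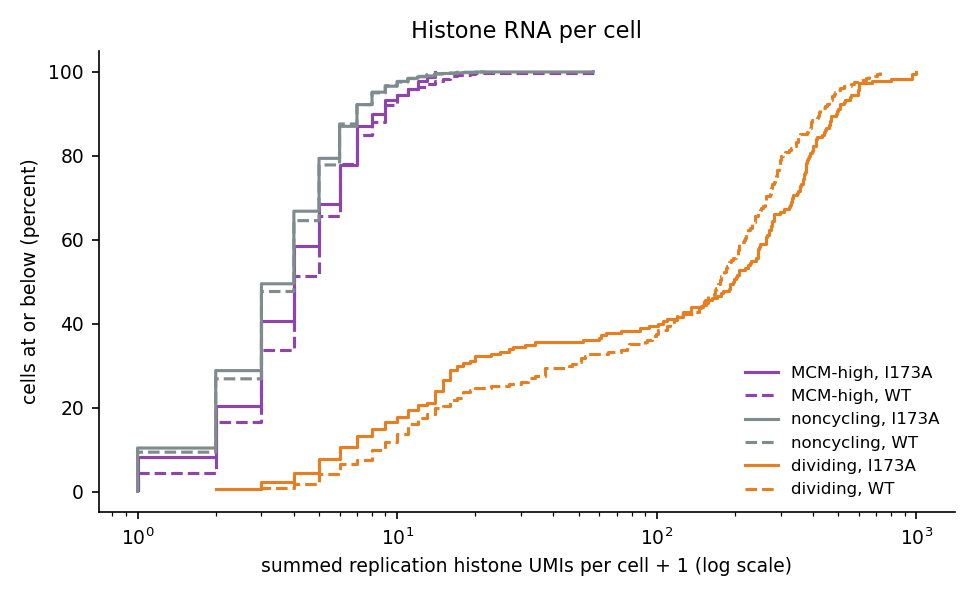
Cumulative share of cells, in percent, by summed replication histone UMIs per cell plus 1, on a log axis. Solid lines are I173A and dashed lines WT. The MCM-high curves run beside the noncycling curves, with medians of 3 UMIs, and the dividing curves reach medians of 197 (I173A) and 174 (WT).

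The rest of the programme is given by role, as a description, since the same cells were chosen by related genes. Against noncycling cells, 266 of 7985 genes (3.33%) were 1.5-fold or more higher in both genotypes and 135 (1.69%) lower, with a median log2 ratio over all genes of -0.06 (I173A) and -0.04 (WT). Of 14 measured origin licensing genes, 9 were higher and 0 lower, with a median log2 ratio of 1.32 (I173A) and 1.47 (WT). Mcm2, a helicase subunit, had 190 and 206 CPM in I173A and WT MCM-high cells, against 32.0 and 34.0 CPM in noncycling cells. Gmnn, which encodes the CDT1 inhibitor geminin, had 78.4 and 80.4 CPM, against 13.7 and 13.2 CPM. Not all subunits took part. Orc4, a subunit of the origin recognition complex, had 49.4 and 43.8 CPM, against 46.5 and 40.8 CPM in noncycling cells.

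Replication fork genes moved almost as a block. Of 29 measured replisome genes, 27 were 1.5-fold or more higher than in noncycling cells and 0 lower, with a median log2 ratio of 1.5 (I173A) and 1.65 (WT). Chaf1a, a subunit of the histone chaperone CAF-1, had 39.9 and 46.0 CPM in I173A and WT MCM-high cells, against 3.32 and 3.05 CPM in noncycling cells. Lig1, the ligase that joins lagging strand fragments, had 94.7 and 96.2 CPM, against 11.1 CPM in noncycling cells of each genotype. Both genes were about an order of magnitude apart between the classes. Pcna, the sliding clamp, had 167 and 166 CPM, against 61.7 and 59.4 CPM in noncycling cells and 393 and 392 CPM in dividing cells. Slbp, which encodes the protein that binds and stabilises histone RNA, had 213 CPM in each genotype, against 79.4 and 75.8 CPM in noncycling cells, although the histone RNAs themselves were not higher. All 7 measured genes of S phase repair and DNA methylation upkeep were higher, among them Uhrf1, which guides the maintenance methylase, with 74.7 and 80.1 CPM against 11.2 and 9.49 CPM, and Dnmt1, that methylase, with 185 and 167 CPM against 60.6 and 66.6 CPM.

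Nucleotide supply genes were set beside both other classes. Of 19 measured genes, 14 were 1.5-fold or more higher than in noncycling cells and 0 lower, with a median log2 ratio of 0.71 (I173A) and 0.88 (WT). Dut, which removes dUTP, had 255 and 256 CPM in I173A and WT MCM-high cells, against 68.2 and 63.4 CPM in noncycling cells, and Rrm1, the large subunit of ribonucleotide reductase, had 79.3 and 73.4 CPM, against 23.3 and 24.8 CPM. Its small subunit Rrm2 had 14.0 and 12.9 CPM, against 4.01 and 4.47 CPM in noncycling cells and 466 and 543 CPM in dividing cells. Tk1, thymidine kinase, had 12.2 and 17.1 CPM, against 186 and 172 CPM in dividing cells. Thus Rrm1, Dut and Rrm2 all stood above noncycling cells, while Rrm2 and Tk1 stood at a small part of their dividing level. Against dividing cells, 8 of 20 measured genes of this list were 1.5-fold or more lower and 0 higher, where 7.84% of all genes were lower.

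Regulators of the G1 to S step covered the same range. Of 18 measured, 9 were higher and 0 lower than in noncycling cells, with a median log2 ratio of 0.73 (I173A) and 0.61 (WT). Ccne1, the cyclin E1 gene that partners CDK2 at the start of S phase, had 34.9 and 35.7 CPM in I173A and WT MCM-high cells, against 13.7 and 13.6 CPM in noncycling cells and 84.6 and 83.7 CPM in dividing cells. Cdk4, the D cyclin kinase, had 364 and 346 CPM, against 205 and 204 CPM in noncycling cells and 367 and 360 CPM in dividing cells. Ccnd2, cyclin D2, had 533 and 551 CPM, against 481 and 501 CPM in noncycling cells and 250 and 274 CPM in dividing cells, so it was lowest in the dividing class. The repressors E2f7 and E2f8, which close the E2F programme in later S phase, had 2 and 4 UMIs over all MCM-high cells, while E2f8 reached 52.4 CPM (I173A) and 66.5 CPM (WT) in dividing cells.

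Against dividing cells, 127 of 5666 genes (2.24%) were 1.5-fold or more higher in MCM-high cells of both genotypes and 444 (7.84%) lower, with a median log2 ratio over all genes of 0.00 (I173A) and 0.03 (WT). All 32 measured histone genes and all 41 measured G2/M genes were lower, and the rule's 6 mitosis genes are of the G2/M kind. Of 18 licensing genes, 9 were lower and 0 higher, and of 32 replisome genes, 17 were lower and 0 higher. Clspn, an adaptor of the replication checkpoint, had 23.1 and 31.9 CPM in I173A and WT MCM-high cells, against 188 and 175 CPM in dividing cells and 2.25 and 1.96 CPM in noncycling cells. Asf1b, a histone chaperone of dividing cells, had 26.7 and 35.7 CPM, against 255 and 264 CPM in dividing cells. At the other end Timeless, a fork protection gene, had 97.8 and 89.4 CPM, against 96.0 and 83.4 CPM in dividing cells, and Ung, the uracil glycosylase of the rule, had 108 and 118 CPM at 1.69 and 1.71 times the dividing level.

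Outside the cycle, some quiescence genes were lower than in noncycling cells. Of 30 Myc and nucleolar genes, 2 were 1.5-fold or more higher and 0 lower, with a median log2 ratio of 0.38 (I173A) and 0.48 (WT). Nop58, a small nucleolar RNA protein gene, had 202 and 214 CPM in I173A and WT MCM-high cells, against 138 and 128 CPM in noncycling cells. Of 18 FoxO and quiescence genes, 7 were 1.5-fold or more lower and 0 higher, with a median log2 ratio of -0.55 (I173A) and -0.58 (WT). Btg1, an antiproliferative gene, had 414 and 450 CPM, against 732 and 806 CPM, and Pik3ip1, a brake on PI3 kinase, had 51.6 and 45.0 CPM, against 109 and 83.4 CPM. Socs3, a feedback inhibitor of cytokine signalling, was the lowest of all measured genes relative to noncycling cells, with 7.25 and 14.8 CPM against 23.5 and 34.7 CPM.

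Maturation genes were read next. Ptcra, the pre-TCR alpha chain, and Cd4 had 0 UMIs in all 595 cells. For such a count a fixed floor of 3 UMIs over the class was taken, which is below the upper end of the exact 95% interval. Klf2, a factor of thymic exit, had 652 and 655 CPM in I173A and WT MCM-high cells, against 772 and 684 CPM in noncycling cells, and S1pr1, the exit receptor, had 107 and 117 CPM, against 154 and 163 CPM. Ccr9, a chemokine receptor of less mature thymocytes, had 153 and 216 CPM, against 258 and 316 CPM. Both S1pr1 and Ccr9 were thus lower than in noncycling cells. Of 27 genes of the mature SP and exit list, 3 were 1.5-fold or more lower and 0 higher, with a median log2 ratio of -0.28 (I173A) and -0.40 (WT). Markers of other cells were few: 4 of 7 B cell genes, 5 of 11 myeloid genes, 5 of 8 NK cell genes and all 6 erythroid genes had no UMI. The summed B cell list was 129 CPM (I173A) and 119 CPM (WT), against 167 and 187 CPM in noncycling cells, and the summed NK cell list was 9.51 and 14.2 CPM, against 10.2 and 7.96 CPM in noncycling cells.

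Antigen receptors were diverse. A productive TRA and a productive TRB chain were found in 87.9% of I173A and 89.0% of WT MCM-high cells, against 84.0% and 84.8% of noncycling cells. All 484 MCM-high cells with a defined clonotype had different ones, and 1 of them was shared with another barcode of the gate. TRBV12-1, the most used beta segment, made up 10.6% of 616 beta contigs, against 8.85% of 3617 contigs in noncycling cells and 9.54% of 409 contigs in dividing cells. The leading beta segment was the same in these 3 classes. The most used TRAV segment was TRAV16N in MCM-high (4.98%), TRAV6-6 in noncycling (4.38%) and TRAV12D-3 in dividing cells (6.21%). In MCM-high cells TRAV16N had 14 of 245 alpha contigs in I173A and 17 of 378 in WT, against 6 and 22 for TRAV6-6. The order of the segments thus rests on few contigs, and a difference between classes was not tested. Cells with 2 or more productive beta chains, which a doublet can give, made up 9.62% of I173A (95% interval 6.20% to 14.1%) and 5.62% of WT MCM-high cells (3.47% to 8.54%), against 4.18% and 4.61% of noncycling cells and 7.22% and 9.52% of dividing cells. Among MCM-high cells with exactly 1 productive beta chain, 41 genes were 1.5-fold or more higher in I173A and 77 lower, against 55 and 53 among all of them.

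The spread among MCM-high cells was described by the share of the 6 S phase rule genes in their UMIs, cut into 3 bins of 198, 199 and 198 cells. Since those genes chose the cells, the values are a description and support nothing about the choice. Cdc6, the helicase loader, had 4.48, 18.4 and 53.5 CPM from the lowest to the highest bin. Gins2, a subunit of the active helicase, had 19.6, 32.8 and 69.2 CPM, and Tyms, thymidylate synthase, had 10.6, 30.5 and 61.9 CPM. These genes were thus high chiefly in the highest bin. Rrm2 had 2.80, 6.91 and 30.1 CPM, which in the highest bin was still far under the 466 and 543 CPM of I173A and WT dividing cells. Summed histones had 419, 431 and 489 CPM, and Ccna2 had 3.36, 1.15 and 2.23 CPM. The exit factor Klf2 was level across the bins, with 640, 656 and 665 CPM. The median depth of the bins was 8182.5, 8305 and 8852.5 UMIs, a difference whose part in these trends was not tested.

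A few MCM-high cells carried Xcl1. Xcl1, a chemokine gene at chr1:164931644-164935522 (GRCm38.p6), was the gene highest over dividing cells, with 123 CPM in I173A and 136 CPM in WT MCM-high cells, against 56.5 and 51.3 CPM in noncycling cells. Its UMIs came from few cells. Only 11 I173A and 22 WT MCM-high cells had any, and 3 I173A and 8 WT cells with 10 or more UMIs held 88.2% and 90.8% of them. Dividing cells had 16 (I173A) and 47 (WT) Xcl1 UMIs. Cells with Xcl1 were not confined to the MCM-high class. They made up 4.60% of I173A and 6.18% of WT MCM-high cells, 3.33% and 4.29% of dividing cells, and 2.35% and 3.74% of noncycling cells. The 33 cells with an Xcl1 UMI had 422 CPM of Tnfrsf9 (4-1BB, an activation receptor), against 25.6 CPM in the 562 cells without. They had 167 CPM of Nr4a1, an immediate target of TCR signalling, against 25 CPM, and 77.6 CPM of Pdcd1 (PD-1), against 12.7 CPM. Not all genes that respond to the TCR were higher: Cd69, an early activation receptor, had 121 CPM in cells with Xcl1 and 125 CPM in cells without, and Egr2 had 13.7 and 21.5 CPM. Exit and survival genes went the other way. Klf2 had 107 CPM in cells with Xcl1, against 703 CPM in cells without, Il7r, the IL-7 receptor, 22.8 against 213 CPM, and Bcl2, a survival gene, 66.2 against 263 CPM. Summed Myc and nucleolar genes were 12202 CPM in cells with Xcl1 and 5905 CPM in cells without. Summed licensing genes were 1064 CPM in cells with Xcl1 and 1333 CPM in cells without. Single replication genes were further apart, with E2f1 at 20.5 CPM in cells with Xcl1 and 56.6 CPM in cells without, and Hells at 70.8 and 146 CPM. Summed nucleotide supply genes went the other way, with 2524 and 1723 CPM. The cells with Xcl1 were deeper, with a median of 12045 UMIs against 8340.5 UMIs, and depth alone raises the chance of a UMI.

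**Figure D3:**
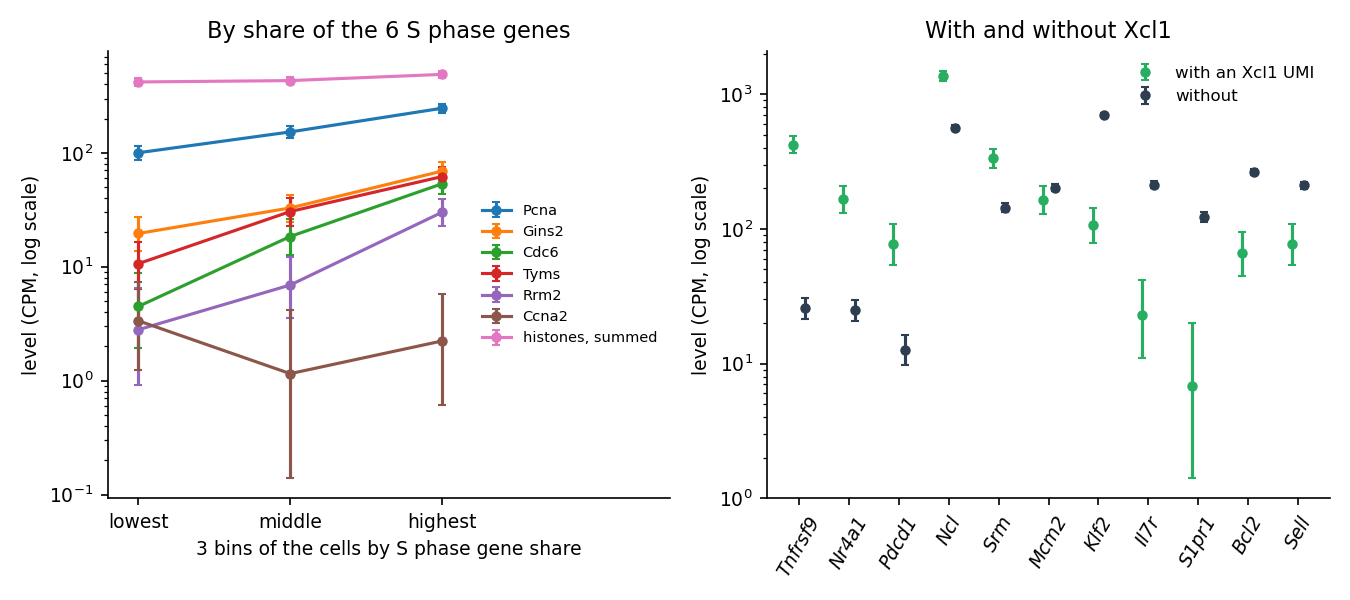
Differences among MCM-high cells of both genotypes together. Left, level in CPM (log scale) of 6 genes and of summed histones in 3 bins of the cells by their share of S phase rule genes, in which Cdc6 runs 4.48, 18.4 and 53.5 CPM while histones run 419, 431 and 489 CPM. Right, level in CPM (log scale) of 11 genes in the 33 cells with an Xcl1 UMI and the 562 without, with Tnfrsf9 at 422 against 25.6 CPM and Klf2 at 107 against 703 CPM. Bars are exact 95% intervals for counting error.

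The first question of the design is whether the allele went with more or fewer of these cells. MCM-high cells made up 8.32% of I173A cells of the CD8 SP gate (239 of 2872, exact 95% interval 7.34% to 9.39%) and 11.8% of WT cells (356 of 3017, 10.7% to 13%). The ratio of the shares was 0.705 (0.596 to 0.833), and among Nkg7-positive cells alone it was 0.655 (0.554 to 0.774), from 10.2% of I173A and 15.6% of WT cells. Dividing Nkg7-positive cells were closer, with 6.27% of I173A and 6.96% of WT cells and a ratio of 0.900 (0.734 to 1.10). There were therefore 0.753 dividing cells per MCM-high cell in I173A and 0.590 in WT. Noncycling cells made up 66.7% of I173A and 56.7% of WT cells. Whether the ratio of MCM-high cells differs from that of dividing cells was not tested, for want of replicates.

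Depth moves with this share, and the median was 5271.5 UMIs in I173A and 5704 UMIs in WT cells of the gate. When each cell was thinned to 3000 UMIs, which 2566 I173A and 2795 WT cells reached, 3.59% of I173A and 4.62% of WT cells met the rule, with a ratio of 0.777 and an interval (0.588 to 1.02) that includes 1. Among thinned Nkg7-positive cells the ratio was 0.695 (0.526 to 0.915). The whole gate, the denominator of the first share, also holds dividing cells without Nkg7, which were 2.89% of I173A and 10.1% of WT cells. The same rule found 2 of 2664 I173A and 8 of 3109 WT cells of the CD4 SP gate, and 0 of 2706 I173A and 0 of 2516 WT cells of the DP gate, which allows up to 0.136% and 0.147%. Nkg7, which the rule requires, had a UMI in 81.3% of I173A and 75.5% of WT cells of the CD8 SP gate, against 2.36% and 2.54% of the CD4 SP gate (median depth 5786.5 and 6079 UMIs) and 0.148% and 0.159% of the DP gate (2750.5 and 2906.5 UMIs). DP cells should lack Nkg7, so their share was read as the background, at a lower depth. Of the MCM-high cells, 7 had a barcode that also occurs in the CD4 SP library and 9 one that occurs in the DP library.

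**Figure D4:**
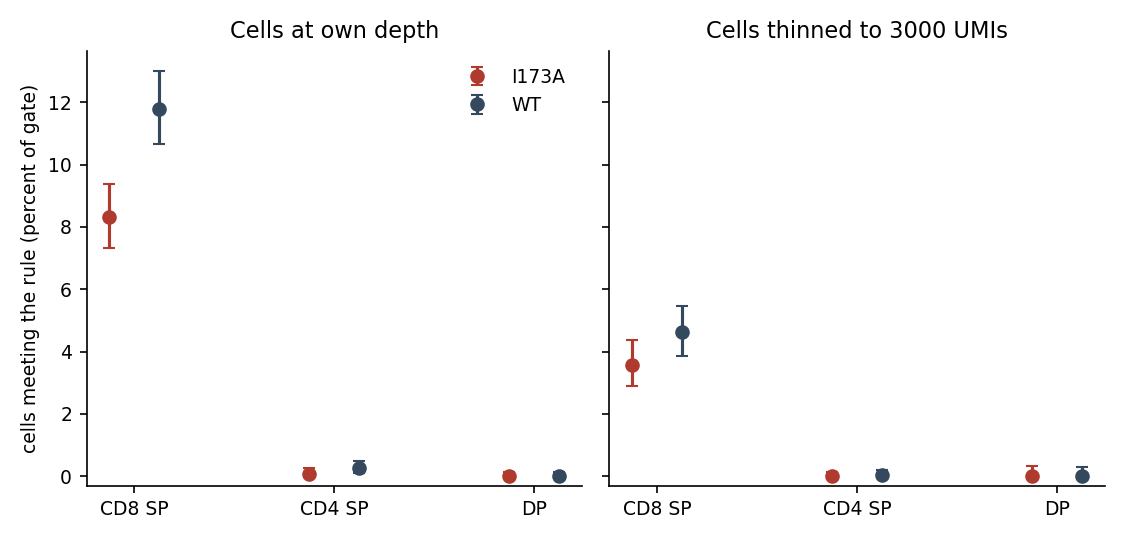
Share of cells that met the rule, in percent of I173A and of WT cells of each sort gate, at the cells' own depth (left) and after thinning to 3000 UMIs (right). Points are single samples and bars exact 95% binomial intervals for counting error. In the CD8 SP gate the I173A share is 8.32% against 11.8% in WT at own depth, and 3.59% against 4.62% after thinning.

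Replication genes were compared between the genotypes first, although cells of both were chosen by the same threshold on genes of that kind, which brings their levels together. Of 6059 genes with 100 or more UMIs over both genotypes, 55 (0.908%) were 1.5-fold or more higher in I173A and 53 (0.875%) lower. None of 17 licensing genes or 30 replisome genes was among them, with median log2 ratios of -0.12 and -0.02, against -0.003 over all genes, counts that are near the share among all genes. Summed replisome genes were 2429 CPM in I173A and 2489 CPM in WT cells, a ratio of 0.976 (0.943 to 1.01), and summed licensing genes were 1261 and 1346 CPM, a ratio of 0.937 (0.893 to 0.983). Of 19 nucleotide supply genes, 15 had a ratio below 1, 1 of them by 1.5-fold or more, with a median log2 ratio of -0.09. That gene was Tyms, with 26.3 CPM in I173A and 40.2 CPM in WT cells, a ratio of 0.653 (0.470 to 0.899), against 1.08 in noncycling cells. Cdc6, with 19.9 CPM in I173A and 29.6 CPM in WT cells and a ratio of 0.673 (0.459 to 0.975), pointed the same way. Cdkn1b, the p27 inhibitor of cyclin-dependent kinases, had 60.2 and 45.4 CPM, a ratio of 1.33 (1.04 to 1.70), against 0.971 in noncycling cells. Cd3e, the gene that carries the allele, had 1251 CPM in I173A and 1263 CPM in WT cells, and a UMI count of the gene cannot show the base change.

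Hormone and stress responsive genes were among the largest differences between genotypes. Tsc22d3 (chrX:140539528-140600522, GRCm38.p6), a glucocorticoid-induced leucine zipper gene, had 158 CPM in I173A and 73.0 CPM in WT MCM-high cells, a ratio of 2.16 (1.83 to 2.57). Ddit4 (chr10:59949675-59951770), a stress and glucocorticoid-induced brake on mTOR, had 299 and 142 CPM, a ratio of 2.10 (1.86 to 2.38). Both genes were higher in I173A in the other classes too. In noncycling cells 60 of 8778 genes (0.684%) were 1.5-fold or more higher in I173A and 37 (0.422%) lower. The ratios there were 2.07 for Tsc22d3 and 1.78 for Ddit4, and in dividing cells 2.35 and 2.15. Across the 3 bins of MCM-high cells by S phase gene share, Ddit4 had 313, 270 and 307 CPM in I173A cells and 131, 137 and 158 CPM in WT cells. The I173A value was the higher one in each bin. The bins divide the same 1 sample per genotype by the rule genes, so they add no independent check. After thinning to 3000 UMIs, 50.8% of I173A and 31.2% of WT MCM-high cells had a Ddit4 UMI. Fkbp5, a further glucocorticoid target, had 64.3 and 43.4 CPM, a ratio of 1.48 (1.16 to 1.89).

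Of the chaperone genes in the stress and glucocorticoid list, 1 measured gene passed 1.5-fold. Hsph1 (chr5:149616843-149636498), a large HSP70 cochaperone, was the lowest of all measured genes, with 36.2 CPM in I173A and 89.8 CPM in WT MCM-high cells, a ratio of 0.404 (0.311 to 0.519), against 0.591 in noncycling and 0.484 in dividing cells. Its level in the bins was 37.2, 41.6 and 30.6 CPM in I173A cells and 89.9, 77.2 and 103 CPM in WT cells. The I173A value was the lower one in each bin, which rests on 1 sample per genotype. Hspa8, the constitutive HSP70, had 1618 and 2268 CPM, a ratio of 0.713 (0.685 to 0.743), and the mitochondrial chaperone gene Hspd1 had 233 and 310 CPM, a ratio of 0.751 (0.673 to 0.836). Dnajb1, an HSP40, had 97.8 and 91.0 CPM, a ratio of 1.07 (0.896 to 1.29). Jun, an AP-1 subunit that responds to stress and to handling of cells, had 17.7 and 33.8 CPM, a ratio of 0.523 (0.352 to 0.762), against 0.298 in noncycling cells. Over the 16 measured genes of the stress and glucocorticoid list, 2 (Tsc22d3 and Ddit4) were 1.5-fold or more higher and 2 (Hsph1 and Jun) lower. The shares among all genes were 0.908% and 0.875%. The median log2 ratio of the list was -0.15.

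Interferon response genes were compared next. Of 20 measured, 15 had a ratio above 1, against 2987 of all 6059 genes, and 2 were 1.5-fold or more higher, against 0.908% of all genes. The list had a median log2 ratio of 0.14 and a summed ratio of 1.08 (1.05 to 1.11). Ifit1, an antiviral RNA-binding protein gene, had 95.1 CPM in I173A and 63.1 CPM in WT cells, a ratio of 1.51 (1.24 to 1.84), against 0.993 in noncycling cells. Ifit3 had 41.7 and 26.7 CPM, a ratio of 1.56 (1.15 to 2.13), against 0.852. Ifih1 (chr2:62595618-62646255), the RNA sensor MDA5, is not in that list and was the highest of all measured genes, with 29.4 and 12.9 CPM and a ratio of 2.29 (1.52 to 3.48) on 105 UMIs, against 1.18 in noncycling cells. Relative to noncycling cells of its own genotype, the list had a median log2 ratio of -0.20 in I173A and -0.48 in WT cells. In the other classes the summed list was lower in I173A, with 4421 CPM in I173A and 4639 CPM in WT noncycling cells, and 2980 CPM in I173A and 3188 CPM in WT dividing cells. In dividing cells Ifih1 had 7.85 CPM (I173A) and 12.2 CPM (WT), so the order there was the other way.

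**Figure D5:**
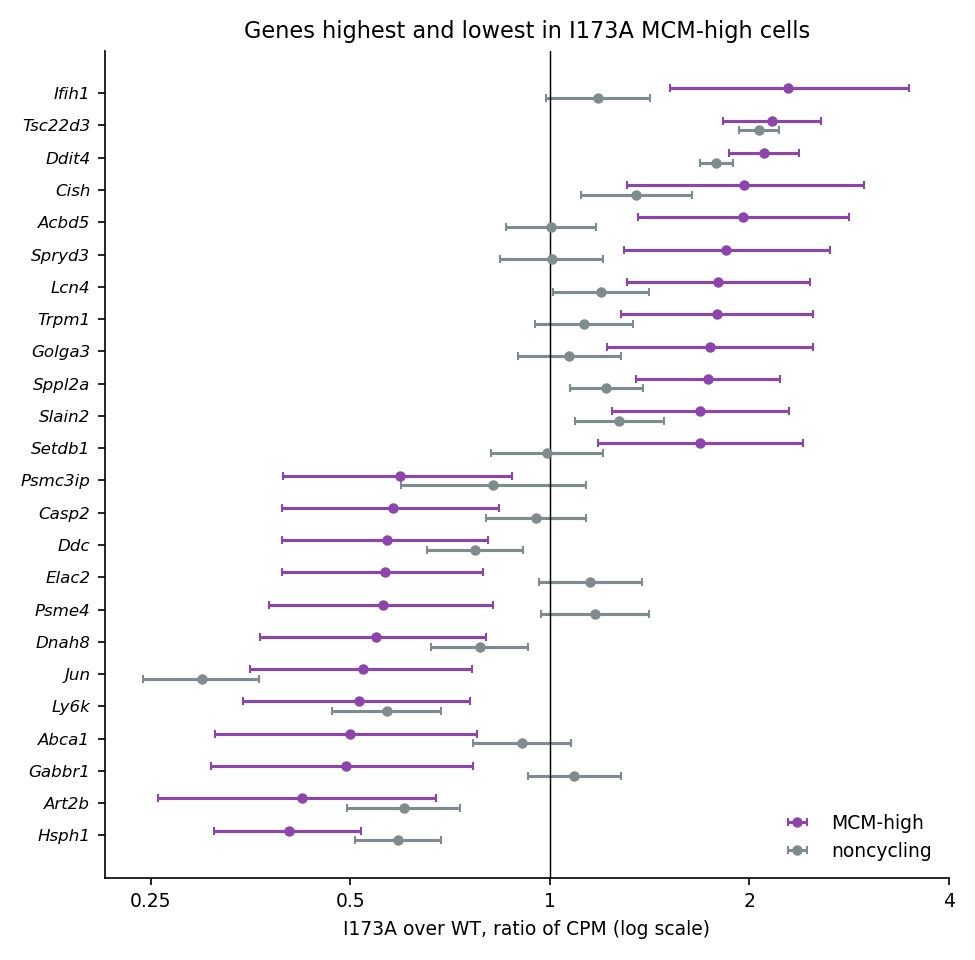
Ratio of CPM, I173A over WT, on a log scale, for the 12 genes highest and the 12 lowest in I173A MCM-high cells, with the same ratio in noncycling cells below each. Bars are exact 95% intervals for counting error. Tsc22d3 and Ddit4 stand near 2 in both classes, Hsph1 stands at 0.404 and 0.591, and Acbd5, Spryd3 and Setdb1 stand near 1 in noncycling cells.

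The ranked genes are the ends of a list of 6059 and were chosen for their ratio, so the ratios in other classes are given beside them. Of the 12 highest, 2 were 1.5-fold or more higher in noncycling cells too and 11 had a ratio above 1 there, with a median of 1.19. Of the 12 lowest, 4 were 1.5-fold or more lower in noncycling cells and 9 had a ratio below 1, with a median of 0.803. Besides Hsph1 and Jun those 4 were Art2b, an ADP-ribosyltransferase gene of T cells, and Ly6k. Art2b had 10.9 CPM in I173A and 25.7 CPM in WT MCM-high cells, a ratio of 0.422 (0.256 to 0.674). Cish, a feedback inhibitor of cytokine and TCR signalling, had 27.2 and 13.8 CPM, a ratio of 1.96 (1.31 to 2.98), against 1.35 in noncycling cells. Acbd5, a peroxisomal fatty acyl-CoA binding protein gene, had 34.0 and 17.4 CPM, a ratio of 1.96 (1.36 to 2.83), against 1.00 in noncycling cells. Abca1, a cholesterol exporter gene, had 12.7 and 25.4 CPM, a ratio of 0.499 (0.312 to 0.777), against 0.907. Acbd5 and Abca1 rest on 129 and 107 UMIs, and whether their ratios differ between the classes was not tested.

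Genes of lipid metabolism, which the study's title names, had ratios on both sides of 1. Of 18 measured, 1 was 1.5-fold or more higher and 1 lower, against 0.908% and 0.875% of all genes, with a median log2 ratio of -0.12. Cpt1a, which admits fatty acids to mitochondria, had 29.4 CPM in I173A and 10.3 CPM in WT MCM-high cells, a ratio of 2.86 (1.85 to 4.51), against 4.01 in noncycling cells, on 97 UMIs and thus below the minimum of 100. Slc25a20, the carnitine carrier, had 26.3 and 16.4 CPM, a ratio of 1.60 (1.08 to 2.38), the highest of the 18. Next came Acadvl, Acadl and Hadhb, genes of beta-oxidation enzymes, with ratios of 1.34, 1.31 and 1.23. The lowest of the 18 was Abca1 (0.499), and Elovl5, a fatty acid elongation gene, had 0.730. Whether the ratios differ by pathway was not tested. The list as a whole had 8 genes with a ratio above 1 and 10 below, and a summed ratio of 0.982 (0.927 to 1.04). Scd2, a fatty acid desaturase, had 35.8 and 52.1 CPM, a ratio of 0.687 (0.518 to 0.904), and Fdps, of the mevalonate pathway, had 34.9 and 47.9 CPM, a ratio of 0.728 (0.545 to 0.964). Idi1, of the same pathway, had 9.51 and 20.6 CPM on 85 UMIs, a ratio of 0.462 (0.268 to 0.767).

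TCR signal genes were not uniformly higher in cells with the allele. Of 16 measured, 0 reached 1.5-fold in either direction, a count near the share among all genes (0.908% higher and 0.875% lower). A ratio above 1 was found for 7, against 2987 of all 6059 genes, and the summed ratio was 1.00 (0.961 to 1.04). Nr4a1 had 43.5 CPM in I173A and 31.9 CPM in WT MCM-high cells, a ratio of 1.37 (1.02 to 1.83). Of its UMIs, 25 in I173A and 48 in WT came from the 11 and 22 cells with an Xcl1 UMI (182 and 159 CPM there). The Nr4a1 ratio thus also reflects how many such cells each genotype had. Cd5, a surface inhibitor that tracks TCR signal strength, had 206 and 207 CPM, a ratio of 0.998 (0.883 to 1.13), against 1.15 in noncycling cells. Of survival and cytokine genes, Bcl2 had 279 and 224 CPM, a ratio of 1.24 (1.11 to 1.39), and Il7r had 221 and 181 CPM, a ratio of 1.22 (1.08 to 1.38). Ccr9 had a ratio of 0.708 (0.619 to 0.808) and Cd8a one of 0.817 (0.774 to 0.862), from 959 CPM in I173A and 1173 CPM in WT cells. Each of these 4 genes lay on the same side of 1 in noncycling cells, with ratios of 1.19, 1.10, 0.817 and 0.856.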

How the data were processed

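The authors deposited 3 kinds of file for each sort gate: a gene by cell matrix of UMI counts that also holds antibody hashtag counts, barcode lists, and TCR contig tables. Per the submitters' processing notes, Cell Ranger 6.0.1 and GRCm38 (mm10) were used, and the matrix headers name version 3.1.0. Aligner settings and cell calling are not given in the sources used here. UMI counting removes PCR copies, so 1 count is 1 captured molecule.

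Cells with 500 or more genes, at most 10% mitochondrial UMIs and 1 hashtag of 10 or more counts and 4 times each other were kept. Cells with several hashtags (5.48% of the CD8 SP gate) were left out, which removes doublets between genotypes only. No doublet caller was run, and cells with 1 TRB chain alone were kept as an alternative. Hashtag 5 cells, which the labels give no genotype, entered no comparison. The CD8 SP gate held 9239 barcodes and 65934387 UMIs.

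UMI counts were summed per class and genotype and divided by the class total. Genes needed 100 UMIs over both groups, and a difference of 1.5-fold was the limit for counting a gene. Ratios carry exact conditional 95% intervals, levels exact Poisson intervals and shares Clopper-Pearson intervals. For levels of detection, cells were thinned to 3000 UMIs with a fixed seed. With 1 sample per genotype no model was fitted, and edgeR 4.0.16 (R 4.3.3) gave only TMM factors. Python 3.11.15, NumPy 2.4.6, SciPy 1.17.1, pandas 2.3.3 and matplotlib 3.10.9 were used. The code was tested on simulated data. Named genes were the rule genes, genes listed by hand, up to 4 highest and 4 lowest of each list, and 12 at each end of each comparison. Between genotypes these were the largest ratios whose interval leaves out 1, and between classes the largest by the ratio nearer 1 of the 2 genotypes. Receptor segment, mitochondrial, ribosomal protein and clone-named genes were left out of the ranks. The cells, the gene lists and these rules were chosen with earlier results of these data known. RefSeq positions and promoters were matched by symbol (110 of 115 genes named by rank or by hand had a position).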

Additional observations from a re-analysis of the deposited data

Results flagged for a closer look

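Cells with hashtag 5 form a group that no comparison used, because the labels name only hashtags 4 and 6. In the CD8 SP gate 357 of 2745 such cells met the rule for MCM-high cells, a share of 13% (11.8% to 14.3%), against 8.32% of I173A and 11.8% of WT cells. The labels used here do not say which mice these cells came from.

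Ccr7, a chemokine receptor of mature thymocytes, pointed in opposite directions in 2 classes. In MCM-high cells it had 487 CPM in I173A and 537 CPM in WT cells, a ratio of 0.906 (0.838 to 0.978), while in noncycling cells it had 591 CPM in I173A and 567 CPM in WT cells, a ratio of 1.04. The difference between the classes was not tested.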

How the results depend on the processing

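No paired analysis was possible because each genotype was 1 sample, and no replicate could be left out. The ratio of the shares of MCM-high cells stayed between 0.655 and 0.797 under every alternative run and below 1 in each, although with thinned cells its interval (0.588 to 1.02) included 1. The settings for 1 TRB, for few UMIs of immature thymocyte genes and for barcodes in 1 library left out MCM-high cells only. Their denominator stayed all cells of the gate, so those ratios are not shares among cells filtered alike. Thinned to 3000 UMIs, the shares were 3.59% (I173A) and 4.62% (WT) in the CD8 SP gate and 0% and 0.0346% in the CD4 SP gate, and an Nkg7 minimum of 3 UMIs gave 10.0% in WT. Of genes 1.5-fold apart between genotypes, thinned cells gave 14 higher and 17 lower, no minimum 1020 and 1841, and a minimum of 200 UMIs 8 and 10. The other settings gave 41 to 66 higher and 50 to 77 lower. Cells with 1 TRB gave 41 and 77, and an Nkg7 minimum of 3 UMIs 54 and 74; the cause was not tested. By TRB alone 1.70% of cells shared a clonotype. Of 492 values of list medians under these settings 487 moved by less than their interval and 5 by more, 4 of these with thinned cells, where the 3 TCR signal genes left had a median of 0.15. The 59 named genes were recomputed only with TMM scaling, a mean over cells, another total and other UMI minimums, and moved by less than their interval. A UMI minimum cannot move a ratio, and these genes were not recomputed in thinned cells or under other cell filters. Leaving out cells with an Xcl1 UMI, or with a barcode found in another gate's library, was chosen after seeing the data and moved no count of genes by over 1.5 times. Low genes are limited by depth, and Ccna2 in MCM-high cells rests on 12 UMIs.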

Other observations

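All 20 genes of mitochondrial respiration were measured, and their median log2 ratio of MCM-high over noncycling cells was 0.26 (I173A) and 0.29 (WT), with 0 of them 1.5-fold apart. Of 18 measured genes of glycolysis and nutrient transport, 3 were 1.5-fold or more higher than in noncycling cells and 1 lower. Pgk1, a glycolytic kinase, had 251 CPM in I173A and 231 CPM in WT MCM-high cells, against 162 and 151 CPM in noncycling cells. Between genotypes 0 of 20 respiration genes and 0 of 16 glycolysis and transport genes were 1.5-fold apart. These counts are near the share among all genes (0.908% higher and 0.875% lower).

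Of 14 measured genes of the CD8 lineage and of cytotoxic cells, 1 was 1.5-fold or more higher than in noncycling cells and 1 lower. Itgae, the CD103 integrin, had 201 and 218 CPM in I173A and WT MCM-high cells, against 250 and 248 CPM in noncycling cells and 126 and 130 CPM in dividing cells. Klrd1, the CD94 receptor, had 60.7 and 50.5 CPM, against 100.03 and 97.3 CPM in noncycling cells. Gzma, a granzyme, had 13 UMIs over all MCM-high cells, against 44.1 CPM (I173A) and 69.4 CPM (WT) in dividing cells. Gzma is also 1 of the 8 genes of the NK cell list, which summed to 51.5 CPM (I173A) and 76.9 CPM (WT) in dividing cells.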
